A study of Mus musculus with 2 samples.

Results

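The subject was a module of interferon response genes in CD11c+ cells of the mouse spleen. The module was a list of 36 genes given by name, with no threshold on their values, and 35 of them had a column in the count tables, which held 27032 genes. The remaining member, Mx2, was not analysed here. The data came from 2 samples of wild-type mice, replicate 1 and replicate 2, for which the labels give no treatment, age or strain. CD11c+ splenocytes were enriched with magnetic beads, tagged by sample and captured on the BD Rhapsody single-cell system, and mRNA of the whole transcriptome was counted as unique molecular identifiers (UMIs). The headers of both tables name the same library and pipeline analysis, with a tag for each sample. The sources used here do not state the number of mice behind a sample, so the spread between the samples may be technical. The question was which kinds of splenic CD11c+ cells carry these transcripts.

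Type I interferon acts on nearly every cell through the receptor chains IFNAR1 and IFNAR2 and the kinases JAK1 and TYK2. They phosphorylate STAT2, which enters the nucleus together with IRF9 in a complex that recognises the interferon-stimulated response element (ISRE) in the promoters of target genes. Low amounts of interferon present without infection keep some of these genes on at a basal level, which is called tonic signalling. The tables held transcripts only, so interferon itself and the phosphorylation of STAT2 were not measured.

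Letters that match the core of the response element were found in the promoters of many members. RefSeq promoter windows of 300 bases on GRCm38.p6, from 250 bases before to 50 after the start site, were found for 26 of the 36 members. Of these, 15 held at least 1 exact match to GAAANNGAAA or its reverse complement TTTCNNTTTC, that is 57.7%, whereas 3.99% of the 27025 genes in the same table did. Stretches around matches upstream of the start site are shown for 7 members. Of the 18 members lower in cDC1s that had a window, 11 held a match, and of the 5 higher ones 2 did. Ifit1, Ifit3, Ifit3b, Isg15 and Oas1a were taken from these 11, and Ifi213 and Ifi205 because they belong to the same family and differed in opposite directions there. They are printed with the matches in capitals and every sequence written 5′ to 3′ along the gene's strand. Matches that overlap run together, as in Isg15 and Oas1a.
Ifit1: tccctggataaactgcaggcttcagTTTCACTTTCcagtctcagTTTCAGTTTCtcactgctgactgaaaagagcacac
Ifit3: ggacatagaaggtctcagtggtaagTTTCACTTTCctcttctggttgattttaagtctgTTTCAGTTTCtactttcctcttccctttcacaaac
Ifit3b: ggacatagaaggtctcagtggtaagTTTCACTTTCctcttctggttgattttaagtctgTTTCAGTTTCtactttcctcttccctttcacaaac
Isg15: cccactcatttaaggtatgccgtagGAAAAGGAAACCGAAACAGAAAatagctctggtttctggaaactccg
Oas1a: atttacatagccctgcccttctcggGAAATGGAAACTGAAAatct
Ifi213: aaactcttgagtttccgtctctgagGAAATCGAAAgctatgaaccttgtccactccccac
Ifi205: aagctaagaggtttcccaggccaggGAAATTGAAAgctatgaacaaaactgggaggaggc
These stretches lie at chr19:34640760-34640838 for Ifit1, chr19:34583348-34583441 for Ifit3 and chr19:34607744-34607837 for Ifit3b, all on the plus strand. They lie at chr4:156200850-156200921 for Isg15, chr5:120907526-120907570 for Oas1a, chr1:173599311-173599370 for Ifi213 and chr1:174031855-174031914 for Ifi205, all on the minus strand. The Ifit3 and Ifit3b stretches are the same 94 bases, and the 2 genes share 51.2% of the 50-base stretches of the Ifit3 transcript, so that reads may be split between them and their separate values are uncertain. A match is a description of the letters and not evidence of binding.

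Both samples together held 6393 cells, of which 5653 passed the filters on genes, UMIs and mitochondrial share. Replicate 1 had 46953398 UMIs and replicate 2 had 43137746, with 0 cell barcodes in common. Cells were placed in 10 classes by the UMI counts of gate genes, none of which is a member, and 992 cells passed no gate. Macrophages needed at least 20 UMIs of Vcam1 and 5 of C1qb, mature dendritic cells (DCs) 2 of Ccr7 and 1 of Fscn1, conventional DCs of type 1 (cDC1s) 2 of Clec9a and 1 of Xcr1, and plasmacytoid DCs (pDCs) 3 of Siglech and 1 of Ccr9. B cells needed 3 UMIs of Cd79a, T cells 2 of Cd3e and NK cells 1 of Ncr1. The 3 classes of type 2 (cDC2) were an Il1r2 DC class with at least 2 UMIs of Il1r2, a DCIR2 cDC2 class with 2 of Clec4a4 and a CLEC10A cDC2 class with 2 of Clec10a and Cd209a together.

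Checked against markers that were neither gate genes nor members, the lists for macrophages, mature DCs, cDC1s, pDCs, B, T and NK cells each had their highest summed level in their own class in both samples. The list for cDC2s had not: its sum was 1168 and 1301 CPM (UMIs per 1000000 UMIs of the class) in macrophages and between 1060 and 1154 CPM in the 3 cDC2-type classes. It was 918 and 751 CPM in mature DCs, 663 and 713 in NK cells, 640 and 719 in pDCs and 641 and 599 in T cells. In B cells it was 524 and 372 CPM and in cDC1s 71.7 and 65.5, so this list marked the cDC2-type classes off clearly from cDC1s only. The monocyte list reached 67.9% and 64.7% of its macrophage level in CLEC10A cDC2s. The neutrophil list stood at 42.4 CPM in Il1r2 DCs of replicate 1 and at 513 CPM in those of replicate 2, the highest class there. In replicate 1 it was highest in cDC1s, at 115 CPM. The erythroid list was highest in macrophages, at 2375 and 637 CPM. The source of these UMIs was not tested. Of the cells with a class, 23.6% in replicate 1 and 25% in replicate 2 passed more than 1 gate, mostly 2 of the 3 cDC2-type gates, and took the first that matched. No doublet caller was run, and an alternative left these cells out. The pDC class held 13 and 19 cells, under the minimum of 20, so its values are given without a test.

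Macrophages had the highest summed level of the module, and cDC1s had the most members called lower. Over all 35 members the summed level was 3224 and 3043 CPM in macrophages, between 1953 and 2457 CPM in the 3 cDC2-type classes and between 1824 and 2252 CPM in B, T and NK cells. It was 1679 and 1643 CPM in cDC1s, and still lower in mature DCs, at 1486 and 1418 CPM, and in pDCs, at 1450 and 1437 CPM. Sums of UMIs per class and sample were compared with edgeR's quasi-likelihood test, each class against the mean of the other 8 classes, with Benjamini-Hochberg adjustment over the 12480 genes tested and a threshold of 0.05. All 35 members entered the test. In macrophages 25 of the 35 were higher and 2 lower, where 30.6% of all genes tested were higher and 23.2% lower. In cDC1s 6 members were higher and 23 lower, against 24.5% and 16.5% of all genes. The median log2 fold change of the members was 1.14 in macrophages and -1.07 in cDC1s, and that of all genes 0.04 in each.

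**Figure D1:**
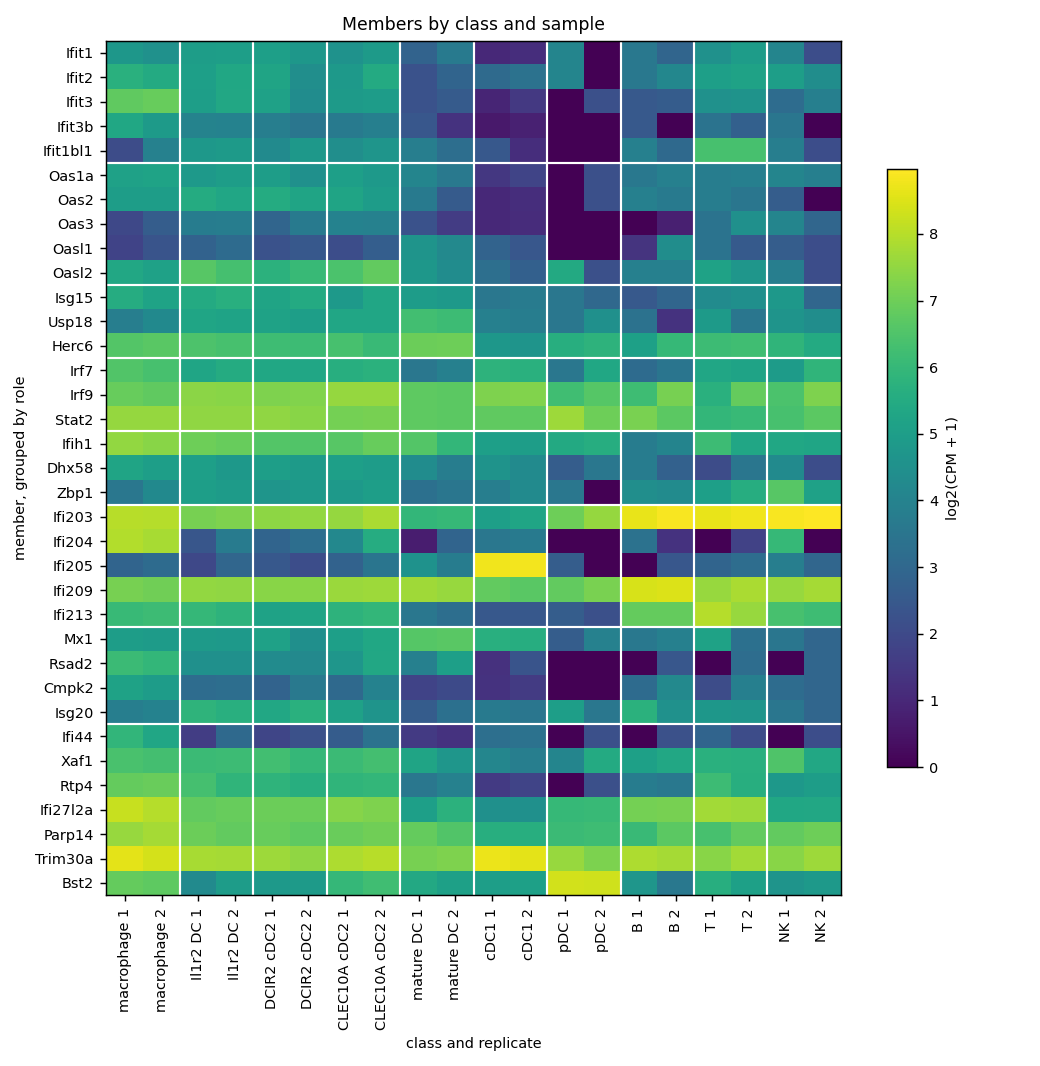
Levels of the 35 members (rows, grouped by role) as log2(CPM + 1) in the 10 classes, with replicate 1 and replicate 2 side by side. The IFIT and OAS rows are dark in cDC1s and brighter in macrophages and the 3 cDC2-type classes, while Ifi205 is brightest in cDC1s and Bst2 in pDCs.

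The 3 cDC2-type classes lay above the mean of the others. In Il1r2 DCs 22 members were higher and 3 lower (all genes 15.8% and 5.93%), and in DCIR2 cDC2s 15 were higher and 3 lower (15.9% and 6.99%). CLEC10A cDC2s had 22 members higher (15.1% of all genes) and 0 lower (4.04%), by edgeR and also at an unadjusted p under 0.05 and by DESeq2. Mature DCs had 7 members higher, 6 with the sample as a replicate block, and 12 lower (19.9% and 14.1%). Lymphocytes followed other patterns: B cells had 4 members higher and 17 lower (14.6% and 16.9%), T cells 7 and 6 (14.9% and 14.5%) and NK cells 3, or 2 with that block, and 7 (8.81% and 7.21%). The calls lost with the block were Ifi205 in mature DCs (edgeR adjusted p = 0.0510 in place of 0.0463) and Ifi213 in NK cells (adjusted p = 0.0528 in place of 0.0277). Both shares in T cells and the shares of higher members in mature DCs and NK cells were near those of all genes, and the median in T cells, -0.12, changed sign in 4 of the alternatives. These 9 comparisons share the same 18 sums, so they are not independent of each other.

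**Figure D2:**
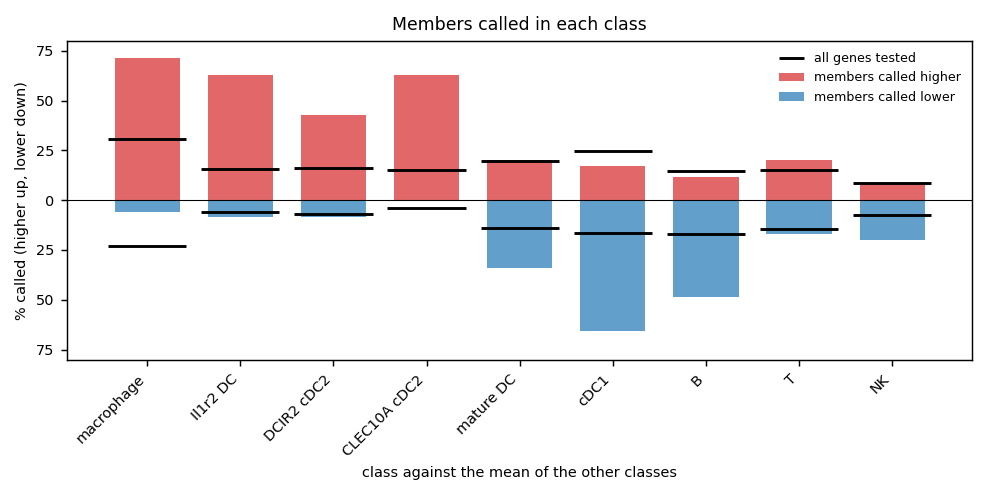
Share of the 35 members called higher (bars up) and lower (bars down) in each class against the mean of the other classes, in percent, with black lines for the same share among the 12480 genes tested. The bars pass the lines most clearly for higher members in macrophages (71.4%), Il1r2 DCs and CLEC10A cDC2s (62.9% each) and for lower members in cDC1s (65.7%) and B cells (48.6%).

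The IFIT family comprises proteins that bind foreign RNA and its caps and block translation. Its 5 members lie within 99.3 kb on chromosome 19 (34550694 to 34650009, GRCm38). Ifit3 stood at 109 and 117 CPM in macrophages, 31.5 and 41 in Il1r2 DCs, 34.5 and 19.7 in DCIR2 cDC2s and 28.3 and 30.1 in CLEC10A cDC2s. In cDC1s it stood at 0.904 and 1.78 CPM and in mature DCs at 3.78 and 5.0. Both macrophage samples were above every other class and both cDC1 samples below all other classes with a test. Ifit3 was higher in macrophages (log2 fold change 3.54 ± 0.16, adjusted p = 3.73e-13) and lower in cDC1s (log2 fold change -3.63 ± 0.31, adjusted p = 1.16e-08).

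Ifit1, which binds the cap of foreign RNA, had another order. It stood at 26.2 and 22 CPM in macrophages, 30.8 and 31.5 in Il1r2 DCs, 32.9 and 25.9 in DCIR2 cDC2s and 23.1 and 28.5 in CLEC10A cDC2s. Macrophages thus overlapped with CLEC10A and DCIR2 cDC2s for Ifit1, unlike for Ifit3. In cDC1s Ifit1 stood at 1.05 and 1.27 CPM, the lowest of the tested classes (log2 fold change -3.75 ± 0.30, adjusted p = 5.48e-09). Ifit2 stood at 50.6 and 43.6 CPM in macrophages and 7.69 and 9.56 in cDC1s, and it was lowest among the tested classes in mature DCs (3.78 and 6.5; log2 fold change -2.19 ± 0.37, adjusted p = 1.02e-04). Ifit1bl1, a paralog of Ifit1, was a T-cell transcript within the family: 80.5 and 80.6 CPM in T cells, 26.5 and 28.9 in Il1r2 DCs and 3.25 and 14.3 in macrophages. Its T-cell samples did not overlap with any other class (log2 fold change 2.66 ± 0.38, adjusted p = 1.91e-05). In the family as a whole all 5 members were lower in cDC1s, all 5 higher in Il1r2 DCs and 4 of 5 higher in macrophages.

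**Figure D3:**
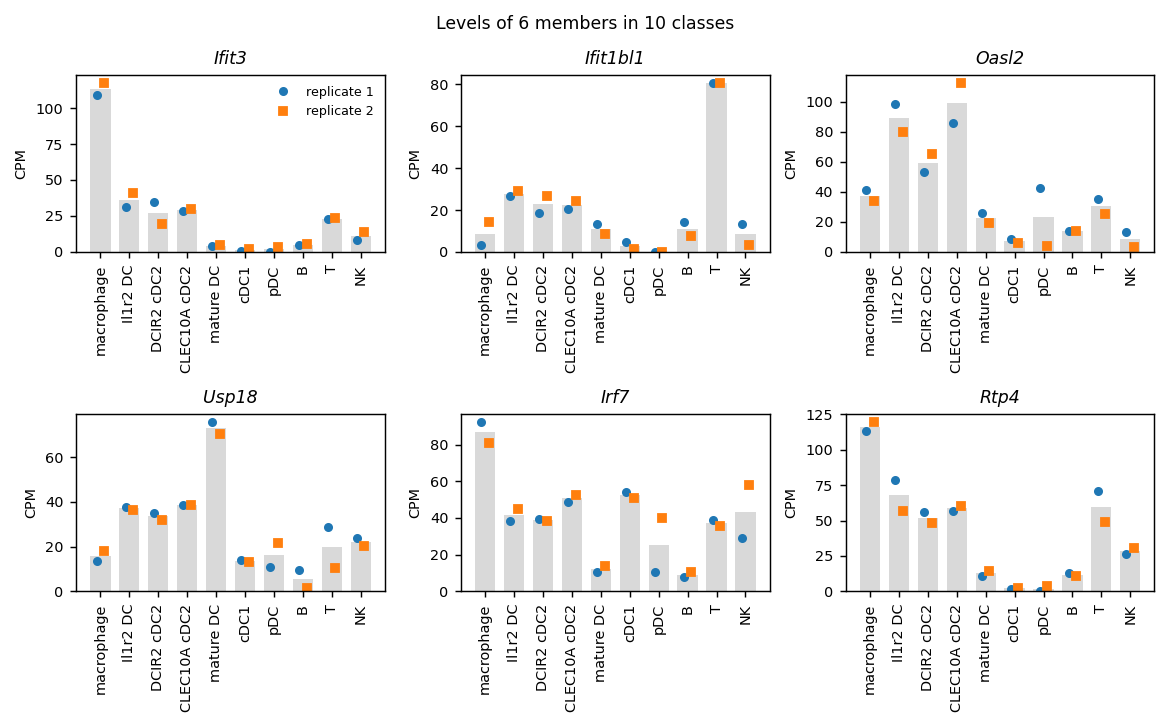
CPM of 6 members in the 10 classes, with points for replicate 1 and replicate 2 and grey bars for their mean. Ifit3, Irf7 and Rtp4 are highest in macrophages, Oasl2 in the CLEC10A cDC2 and Il1r2 DC classes, Usp18 in mature DCs and Ifit1bl1 in T cells.

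The OAS enzymes make 2′-5′ oligoadenylates on double-stranded RNA, which activate the ribonuclease RNase L. Oas2 stood at 44.9 and 39.1 CPM in Il1r2 DCs, 44.5 and 37.2 in DCIR2 cDC2s, 36.7 and 30.4 in CLEC10A cDC2s and 30.7 and 30.6 in macrophages. In cDC1s it stood at 1.05 and 1.27 CPM, which was far under all of these (log2 fold change -3.62 ± 0.44, adjusted p = 1.47e-06). Oas1a, 57.6% of whose 50-base stretches also occur in Oas1g, gave 34.2 and 35.9 CPM in macrophages and 1.73 and 2.62 in cDC1s. Oasl2, an OAS-like protein with enzyme activity in the mouse, was highest in CLEC10A cDC2s and Il1r2 DCs, at 85.5 and 112 and at 98.1 and 79.7 CPM, and these 2 classes overlapped. It was higher in both against the mean of the others (2.10 ± 0.16 and 1.89 ± 0.15 on the log2 scale, adjusted p = 7.60e-09 and 2.20e-08).

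Oas3, which binds long double-stranded RNA, had few UMIs: 14.9 and 14.2 CPM in CLEC10A cDC2s, 9.66 and 22 in T cells, 2.89 and 5.3 in macrophages and 1.05 and 1.18 in cDC1s. Oasl1, a catalytically inactive relative that represses translation of Irf7, differed from the other 4. It was highest in mature DCs at 24 and 17.5 CPM (log2 fold change 2.03 ± 0.36, adjusted p = 2.08e-04), although replicate 2 of B cells, at 19.9 CPM, lay between those samples. In the family 4 of 5 members were lower in cDC1s, where Oasl1 stood at 6.33 and 4.4 CPM.

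The ISG15 system attaches the ubiquitin-like protein ISG15 to other proteins. Isg15 itself stood at 45.6 and 36.3 CPM in macrophages, 43.9 and 50.1 in Il1r2 DCs, 30.3 and 28 in mature DCs and 10.7 and 12.4 in cDC1s. Usp18, which removes ISG15 and blocks the signal of IFNAR2, stood at 75.7 and 70.5 CPM in mature DCs, 13.4 and 17.9 in macrophages and 14 and 13 in cDC1s. Both mature DC samples were above every other sample (log2 fold change 2.08 ± 0.19, adjusted p = 3.34e-08). Herc6, the main ISG15 ligase of the mouse, was highest in mature DCs as well (123 and 126 CPM), followed by macrophages (94.6 and 102), and lowest in cDC1s (25.9 and 24.3). All 3 members were lower in cDC1s and in B cells, while Isg15 was the only one of the 3 not called in mature DCs, at 0.47 ± 0.22 on the log2 scale (adjusted p = 0.103).

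The transcription factors of the module did not share the low level of the IFIT and OAS genes in cDC1s. Irf7, the factor that amplifies interferon production, stood at 92.2 and 81.2 CPM in macrophages, 54.2 and 51 in cDC1s, 48.8 and 52.6 in CLEC10A cDC2s and 10.7 and 14 in mature DCs. It was higher in macrophages (log2 fold change 1.69 ± 0.12, adjusted p = 3.69e-10) and in cDC1s (log2 fold change 0.89 ± 0.12, adjusted p = 4.28e-06) and lower in mature DCs (log2 fold change -1.54 ± 0.21, adjusted p = 7.21e-06). Irf9, the DNA-binding part of the complex that recognises the ISRE, was also higher in cDC1s, at 150.1 and 153 CPM (log2 fold change 0.45 ± 0.14, adjusted p = 0.0152), and highest in CLEC10A cDC2s at 188 and 189 CPM. Stat2, its partner, stood at 109.7 and 107 CPM in cDC1s and 189 and 186 in macrophages, and its log2 fold change in cDC1s was -0.01 ± 0.10 (adjusted p = 1.0). Irf9 and Stat2 were both lower in T cells.

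Among the sensors of foreign nucleic acid, Ifih1 encodes MDA5, which binds long double-stranded RNA. It stood at 182 and 166 CPM in macrophages, 128 and 119 in Il1r2 DCs, 32.2 and 30.5 in cDC1s and 12.6 and 15.5 in B cells. It was higher in macrophages, mature DCs and the 3 cDC2-type classes and lower in cDC1s (log2 fold change -0.90 ± 0.14, adjusted p = 4.03e-05) and in B, T and NK cells. Dhx58 encodes LGP2, a helper of MDA5, and stood at 37.2 and 31.8 CPM in macrophages and 23.6 and 18.4 in cDC1s. Zbp1, a sensor of Z-form nucleic acid that triggers cell death, was higher only in NK cells among the 9 classes (98.1 and 34 CPM; log2 fold change 1.44 ± 0.33, adjusted p = 0.00413), where the replicates stood apart, and it was lower in macrophages (10.8 and 17.9 CPM; log2 fold change -0.75 ± 0.25, adjusted p = 0.0163).

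The PYHIN p200 family of DNA-binding proteins, whose 5 members lie between 173566283 and 174031810 on chromosome 1 (GRCm38), was divided among the cell types gene by gene. Ifi205 stood at 436 and 451 CPM in cDC1s and 6.51 and 7.75 in macrophages, with 22.7 and 12.5 in mature DCs. Both cDC1 samples were above every other sample (log2 fold change 6.22 ± 0.14, adjusted p = 1.18e-16). Of the 50-base stretches of Ifi204, 30.2% occur in other genes, above all Ifi211. Ifi204 stood at 242 and 219.8 CPM in macrophages and 10.7 and 11.6 in cDC1s (log2 fold change 4.97 ± 0.29, adjusted p = 2.04e-11), with 17.3 and 46.5 in CLEC10A cDC2s and no UMI in either pDC sample. In NK cells Ifi204 was at 63.6 CPM in replicate 1 and 0 in replicate 2, and the summed level of the 9 macrophage markers in these samples was 400.3 and 61.1 CPM.

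The other 3 p200 members were highest in lymphocyte classes. Ifi203, which shares its strand and part of its span with Mndal, stood at 477 and 503 CPM in NK cells, 407 and 468 in B cells, 406 and 439 in T cells and 32.2 and 37.7 in cDC1s. It was higher in all 3 lymphocyte classes and lower in cDC1s (log2 fold change -2.51 ± 0.11, adjusted p = 1.42e-12). Ifi213 stood at 248 and 191 CPM in T cells, 116 and 115 in B cells, 64.9 and 71 in macrophages and 4.6 and 4.57 in cDC1s (log2 fold change 2.37 ± 0.12, adjusted p = 1.67e-11 in T cells). Ifi209, 35.1% of whose 50-base stretches occur in other genes, above all Ifi214, was higher only in B cells among the 9 classes (345 and 358 CPM; log2 fold change 0.89 ± 0.09, adjusted p = 1.37e-07). The sequences of Ifi213 and Ifi205 shown above belong to the member that was lower and the member that was higher in cDC1s.

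**Figure D4:**
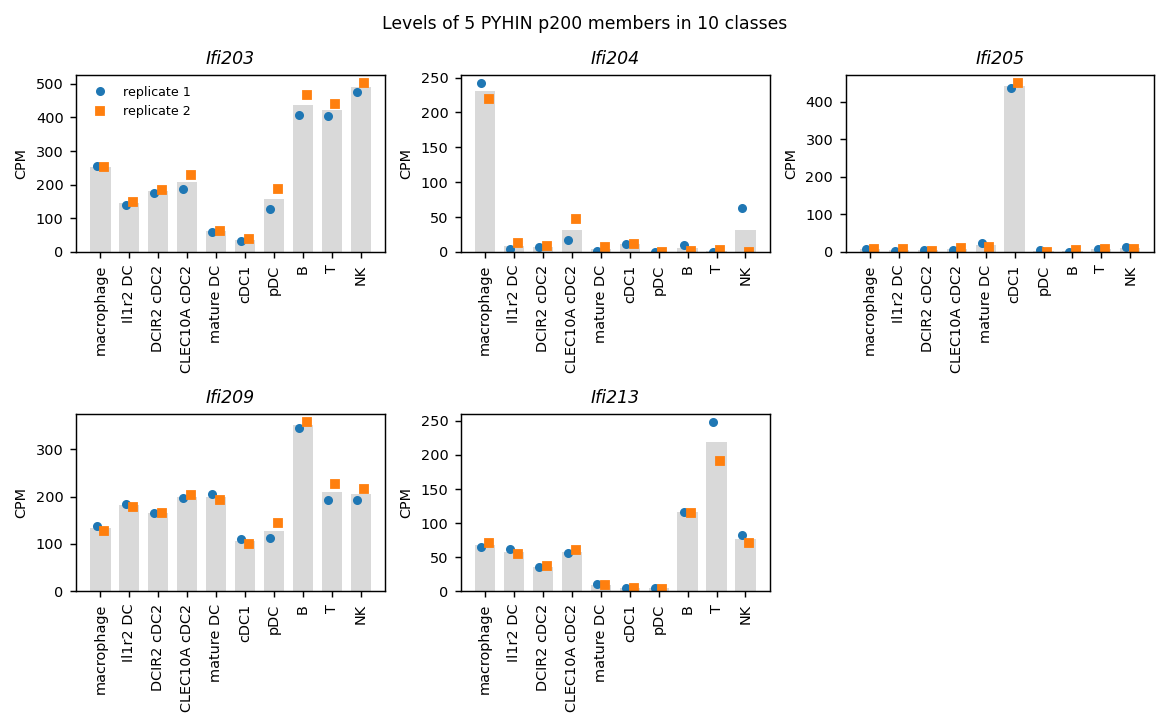
CPM of the 5 PYHIN p200 members in the 10 classes, with points for replicate 1 and replicate 2 and grey bars for their mean. Ifi205 is highest in cDC1s and Ifi204 in macrophages, while Ifi203, Ifi209 and Ifi213 are highest in NK, B and T cells.

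Mx1, a gene of the dynamin-like GTPase family, stood at 95.9 and 100.5 CPM in mature DCs, 50.3 and 46.9 in cDC1s and 30.9 and 29.8 in macrophages. It was higher in mature DCs (log2 fold change 2.21 ± 0.18, adjusted p = 9.24e-09) and in cDC1s (log2 fold change 1.17 ± 0.17, adjusted p = 1.15e-05), and the macrophage log2 fold change was 0.39 ± 0.20 (adjusted p = 0.114). Rsad2 (viperin), which makes a chain-terminating nucleotide, and Cmpk2, a mitochondrial nucleotide kinase whose gene is its neighbour, followed macrophages. Rsad2 stood at 67.8 and 60.4 CPM in macrophages, 25.5 and 40.2 in CLEC10A cDC2s and 1.43 and 3.98 in cDC1s, and Cmpk2 at 35.4 and 30.2 CPM in macrophages and 1.51 and 1.95 in cDC1s. Isg20, an RNA exonuclease, was higher in the 3 cDC2-type classes, with 56.5 and 49.9 CPM in Il1r2 DCs, and lower in mature DCs (5.04 and 9.0 CPM; log2 fold change -1.57 ± 0.34, adjusted p = 0.00131).

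All 7 of the remaining effectors were higher in macrophages. Rtp4, a chaperone of receptors that inhibits flaviviruses, stood at 113 and 119 CPM in macrophages, 78.4 and 57 in Il1r2 DCs, 70.9 and 48.9 in T cells and 1.88 and 2.62 in cDC1s. It was higher in macrophages (log2 fold change 2.47 ± 0.12, adjusted p = 2.02e-12) and had the lowest log2 fold change of all members in cDC1s (log2 fold change -3.91 ± 0.21, adjusted p = 1.37e-11). Ifi27l2a, a small mitochondrial protein, stood at 295 and 249 CPM in macrophages, 209 and 199.5 in T cells and 21.5 and 21.5 in cDC1s. The cell death gene Xaf1 and Parp14, an ADP-ribosyltransferase, were likewise higher in macrophages and lower in cDC1s. Ifi44 was a macrophage transcript at 58.9 and 39.2 CPM that was second by mean in cDC1s at 8.82 and 9.48 CPM (log2 fold change 1.26 ± 0.35, adjusted p = 0.00739). Its cDC1 samples overlapped with those of CLEC10A cDC2s, the next class.

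The last 2 members were high in other places. Trim30a, a TRIM protein that restrains inflammatory signalling, stood at 423 and 386 CPM in cDC1s and 392 and 339 in macrophages, which overlapped, and was higher in both. Bst2 (tetherin), which holds budding viruses at the cell surface and is used as a surface marker of mouse pDCs, stood at 330.5 and 321 CPM in pDCs. Next came macrophages at 114 and 106 CPM and CLEC10A cDC2s at 61.7 and 73.8, and Il1r2 DCs stood at 18.8 and 30.2. In pDCs, where 3 UMIs would be 16.0 and 10.8 CPM, no UMI of Ifit3b, Ifit1bl1, Oas3, Oasl1, Ifi204, Rsad2 or Cmpk2 was counted in either sample. In all, 18 members were higher in macrophages and lower in cDC1s, and 3 (Irf7, Ifi44 and Trim30a) were higher in both. The shares of all genes with these joint patterns were not computed. Each of these 2 classes was also part of the mean the other was set against, so the 2 calls of a member are not independent.

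Cells of a class can carry UMIs of RNA released by other cells, so the lowest levels were set beside those of macrophage markers. The 9 macrophage markers stood in cDC1s at a median of 0.238% of their macrophage level in replicate 1 (range 0.160 to 1.2%) and 0.228% in replicate 2 (0.107 to 1.28%). Ifit3 stood there at 0.831% and 1.51% of its macrophage level, inside the marker range in replicate 1 and just over it in replicate 2. Rtp4 stood at 1.66% and 2.20%, Ifi204 at 4.42% and 5.27%, and Oas2 at 3.43% and 4.15%. The residual Ifit3 of cDC1s could not be told from such background in replicate 1, and the part of released RNA in the other values was not tested.

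The 3 cDC2-type classes were also compared with each other. Between Il1r2 DCs and DCIR2 cDC2s edgeR called 0 members and 0 of all genes (0.0%) in either direction. At an unadjusted p under 0.05, 4 members were higher and 1 was lower in Il1r2 DCs, as were 368 and 235 of the 12480 genes. DESeq2 called 1 member higher and 0 lower. The log2 fold changes of the members ran from -0.28 to 0.79 with a median of 0.25, and a missed threshold does not show equal levels. Since a cell took the first gate it passed, cells that passed both gates counted as Il1r2 DCs, and only 98 of the 382 Il1r2 DCs of replicate 1 and 128 of the 434 of replicate 2 passed no other gate.

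CLEC10A cDC2s differed from both. Against DCIR2 cDC2s 5 members were higher in CLEC10A cDC2s, where 4.79% of all genes were, and 0 were higher in DCIR2 cDC2s (3.32%). At an unadjusted p under 0.05, 1 was higher in DCIR2 cDC2s, as were 1098 of the 12480 genes, and DESeq2 called 0 members. The 5 higher in CLEC10A cDC2s were Bst2, Ifi204, Ifi213, Oasl2 and Trim30a. Bst2 stood at 61.7 and 73.8 CPM in CLEC10A cDC2s and 28.3 and 28.7 in DCIR2 cDC2s (log2 fold change of DCIR2 against CLEC10A -1.32 ± 0.21, adjusted p = 6.31e-04). Ifi213 stood at 55.5 and 59.8 CPM and 34.9 and 36.9 in the same order (adjusted p = 0.00367). Against Il1r2 DCs 3 members, Bst2, Ifi203 and Ifi204, were higher in CLEC10A cDC2s (2.80% of all genes), and 0 were higher in Il1r2 DCs (1.72%). At an unadjusted p under 0.05, 3 were higher in Il1r2 DCs, as were 953 of the 12480 genes, which is a like share. DESeq2 called 1 member higher in Il1r2 DCs. In CLEC10A cDC2s the median macrophage marker reached 0.280% of its macrophage level in replicate 1 and 1.34% in replicate 2, and Ifi204 at 17.3 and 46.5 CPM against 242 and 219.8 in macrophages. Their part and that of the monocyte markers in these differences was not tested.

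The rest of the interferon pathway was counted on lists of genes outside the module. Their counts stand beside shares of all genes of 30.6% higher and 23.2% lower in macrophages and 24.5% and 16.5% in cDC1s. Of 21 interferon ligands 4 had a column and only Ifng passed the filter on counts, with 45.1 and 54.3 CPM in NK cells and none in macrophages. Ifng was called higher in NK cells and also in T cells. The other ligands were not analysed here. Of 9 receptors and kinases 3 were higher, a share near that of all genes, and 1 lower in macrophages, and 5 and 3 in cDC1s. Among those called in macrophages, Jak2 had the largest absolute log2 fold change and was lower (-2.29 ± 0.11, edgeR adjusted p = 8.26e-13). Il10rb came next and was higher (log2 fold change 2.10 ± 0.08, adjusted p = 1.27e-14). Ifnar2, a chain of the type I receptor, came after these. It stood at 208 and 168 CPM in macrophages and 53.1 and 54.6 in cDC1s (log2 fold change 1.48 ± 0.09, adjusted p = 3.96e-11 in macrophages). Ifnlr1, the receptor chain for type III interferon, had the largest log2 fold change of the list in cDC1s. It stood there at 10.7 and 7.11 CPM (log2 fold change 3.24 ± 0.41, adjusted p = 2.33e-06) and had 3 and 0 UMIs in the macrophage samples. Next in cDC1s by size were Ifngr1, which was higher (log2 fold change 1.43 ± 0.08, adjusted p = 3.19e-11), and Jak1, which was lower (log2 fold change -0.85 ± 0.10, adjusted p = 1.59e-06).

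Of 12 sensors and adaptors that feed the pathway 6 were higher and 2 lower in macrophages, and 5 and 4 in cDC1s. In each of the 3 cDC2-type classes 6 were higher. The shares of all genes called higher were 15.8% in Il1r2 DCs, 15.9% in DCIR2 cDC2s and 15.1% in CLEC10A cDC2s. Ddx58 encodes RIG-I, which binds short double-stranded RNA, and stood at 114 and 117 CPM in macrophages and 3.84 and 3.47 in cDC1s (log2 fold change -4.30 ± 0.15, adjusted p = 6.29e-14 in cDC1s). Tlr7, the endosomal receptor of single-stranded RNA, stood at 214 and 177 CPM and 2.49 and 3.38 in the same order (log2 fold change -4.15 ± 0.26, adjusted p = 1.65e-10 in cDC1s). Tlr3, the endosomal receptor of double-stranded RNA and one of the cDC1 markers, stood at 28.9 and 33.4 CPM in macrophages and 299 and 274 in cDC1s (log2 fold change 5.30 ± 0.12, adjusted p = 1.26e-16 in cDC1s). MDA5 of the module and RIG-I were thus both low in cDC1s, while the endosomal receptor TLR3 was high.

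Of 21 genes known as targets of interferon gamma, 14 were higher and 4 lower in macrophages, and 7 and 8 in cDC1s. Cxcl9, a chemokine for activated T cells, had the largest log2 fold change of the list in cDC1s (log2 fold change 5.19 ± 0.30, adjusted p = 4.38e-11), and the GTPase Iigp1 in macrophages (log2 fold change 6.12 ± 0.23, adjusted p = 2.49e-14). Of 11 repressors 2 were higher and 3 lower in macrophages and 2 and 4 in cDC1s. In macrophages these counts are near or under the shares of all genes. Among the repressors called in cDC1s, Ubash3b had the largest absolute log2 fold change and was higher (1.74 ± 0.13, edgeR adjusted p = 1.88e-09). The phosphatase gene Ptpn6 was lower there (log2 fold change -1.07 ± 0.09, adjusted p = 1.26e-08). These lists describe where the genes were counted and do not measure signalling.

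The share of cells with a UMI of an IFIT or OAS member was compared at equal depth. Each cell was thinned to 3000 UMIs, and at most 5 cells of a class and sample had fewer and were left out. In macrophages 51.9% (46 to 57.7%) of cells in replicate 1 and 42.3% (33.7 to 51.3%) in replicate 2 had a UMI of at least 1 of the 10 IFIT and OAS members, with exact 95% binomial intervals that cover counting error only. In cDC1s the shares were 7.31% (5.47 to 9.52%) and 5.44% (3.72 to 7.63%), and these intervals overlapped with those of NK and B cells in replicate 1 and of NK cells in replicate 2, and lay below those of the other tested classes. Shares were 42.8% and 41.3% in Il1r2 DCs, 37.7% and 32.5% in CLEC10A cDC2s, 34.1% and 31.4% in DCIR2 cDC2s and 41.5% and 43.4% in T cells, where Ifit1bl1 had the most cells with a UMI. With all UMIs of each cell the shares were 88.4% and 83.1% in macrophages (median 19313 and 18137 UMIs per cell) and 21.9% and 22.6% in cDC1s (19521 and 20953 UMIs). These 2 classes were thus of like depth per cell.

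**Figure D5:**
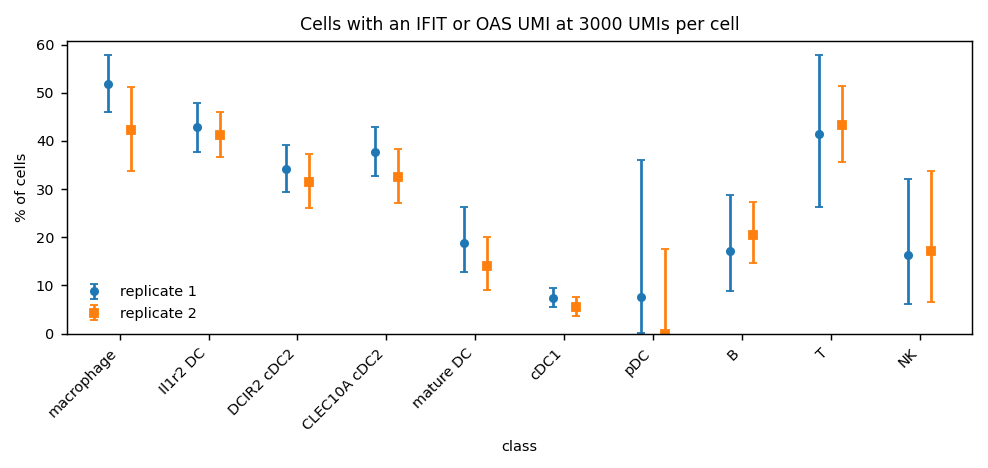
Percent of cells with at least 1 UMI of the 10 IFIT and OAS members at 3000 UMIs per cell, by class, with exact 95% binomial intervals for replicate 1 and replicate 2. Macrophages, T cells and Il1r2 DCs lie between 41.3% and 51.9% and cDC1s at 7.31% and 5.44%.

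The 10% of Il1r2 DCs with the most IFIT and OAS UMIs held 54.0% of them in replicate 1 and 57.4% in replicate 2, and the same 10% held 43.8% and 54.9% in macrophages and 60.4% and 67.2% in CLEC10A cDC2s. At 3000 UMIs per cell the highest cells had 35 such UMIs among DCIR2 cDC2s and 32 among CLEC10A cDC2s, both in replicate 2, where the class means were 0.771 and 0.913. At such low means a part of the cells holds most UMIs by counting alone, and the share that counting alone gives was not computed. In the 3 cDC2-type classes an OAS UMI was found in 50.5 to 59.2% of the cells with an IFIT UMI and in 19 to 26.1% of the cells without one, over both samples. In macrophages the shares were 28.2% and 25% with an IFIT UMI and 16.6% and 12.8% without. In cDC1s they were 24% and 31.25% with and 3.79% and 2.71% without, on 25 and 16 cells with an IFIT UMI. In mature DCs they were 50% and 37.5% with and 13.8% and 9.76% without, on 8 such cells in each sample. In T cells the replicates went opposite ways, with 38.5% against 14.3% in replicate 1 and 11.3% against 15.1% in replicate 2. So did those of B cells, with 8 and 15 cells with an IFIT UMI, and of NK cells, with 2 and 3. Cells of a sample are not replicates, so these shares are a description.

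Over all 35 members the median cell at that depth held 9 and 8 UMIs in macrophages, 5 and 4 in cDC1s and 4 to 5 in the cDC2-type classes. The median of cDC1s was thus near that of cDC2s although their IFIT and OAS UMIs were fewer, and this sum includes Ifi205 and Trim30a.

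The members did not share a single profile over the 20 sums of class and sample. Pearson's r of log2(CPM + 1) with the mean standardised profile of the other members was 0.915 for Ifit3, 0.911 for Rtp4, 0.903 for Ifit3b, 0.884 for Oas1a and 0.838 for Oas2. It was 0.151 for Trim30a, 0.0651 for Ifi209, -0.213 for Ifi205 and -0.235 for Bst2. Among 7053 other genes with a mean of at least 20 CPM, the profile most like that of the module was of Tgm2, a transglutaminase (r = 0.943), followed by Slc12a2 (0.877), Sash1 (0.866), Adgre1 (0.859) and Rnf213 (0.852). The next 10 were D5Ertd579e, Gpr141, Sirpb1b, Oma1, Fcgr4, Clec4a3, Pygl, Pla2g7, Cd300ld and Siglece, with r down to 0.789. Adgre1 encodes F4/80, a marker of macrophages, and the 20 points share 2 samples and differ in depth, so these values describe likeness only.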

How the data were processed

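Single-cell mRNA libraries of 2 wild-type samples were analysed. The deposited tables hold UMI counts that the authors obtained from the BD Rhapsody WTA Analysis Pipeline 1.12.1 on GRCm38 with GENCODE vM19, intronic reads included, corrected by the pipeline and without normalization. R 4.2.3 and Seurat 4.3.0.1 are named in the submitters' processing notes. The sources used here do not say how reads of near-identical genes were assigned. Of the 36 members, 8 had over 10% of their 50-base stretches in other genes, among them Herc6 (23.8%), Rtp4 (13.6%) and Ifi203 (10.7%).

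From these counts, cells with at least 200 genes and within the mean ± 3 median absolute deviations of mitochondrial share, genes and UMIs were kept, as the methods state, and gated. UMIs were summed per class and sample and tested in R 4.3.3 with edgeR 4.0.16 (TMM, filterByExpr, quasi-likelihood test, Benjamini-Hochberg adjustment, 9 residual degrees of freedom), gate genes left out. Errors of fold changes are standard errors, computed as the log2 fold change over the root of its F statistic. The pDC class had under 20 cells, so each class was set against 8 others and not 9 as planned. DESeq2 1.42.0 was an alternative. The edgeR fit was tested on simulated data. Tables and figures come from scripts in Python 3.11.15 with pandas 2.3.3, numpy 2.4.6, scipy 1.17.1 and matplotlib 3.10.9, and gene positions come from GENCODE vM21 on GRCm38.

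The members, lists, markers and tests were chosen with earlier results of these data known, among them a cluster led by Ifit1 and Oasl2, which is no independent support here. All members are named, with at most 3 called genes per pathway list and comparison by size of fold change, and the 15 genes most like the module. The list of other transcription factors is not reported here. The replicate number ties both samples to the same class only through the sample: deviations from the class means correlated with a median r of 0.0309 between classes (-0.0585 to 0.113 over 36 pairs), and the replicate block was tried among the alternatives. The replicates of each tested class differed by more than the counting of independent UMIs gives (chi-square per degree of freedom 2.59 to 5.96). UMIs of a cell are not independent, so these values do not show a difference beyond the sampling of cells.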

Additional observations from a re-analysis of the deposited data

How the results depend on the processing

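The 24 counts of higher and lower members were recomputed under 8 alternatives, which gave 192 counts, and 167 of them were within 1.5 times the count reported. Of the 192 calls of a member in a comparison, 191 kept their direction in every alternative and 123 were called in every one. The sample as a replicate block ended 2 calls, Ifi205 in mature DCs and Ifi213 in NK cells, and added 6, among them 1 member called higher in Il1r2 DCs against CLEC10A cDC2s. The other alternatives moved these counts. With all deposited cells, members lower in macrophages came to 4 in place of 2, and 1 in place of 0 was higher in Il1r2 DCs than in CLEC10A cDC2s. With cells of more than 1 gate left out, lower members came to 6 in macrophages, 2 in T cells, 1 in Il1r2 DCs and 1 in Il1r2 DCs against CLEC10A cDC2s. With gate thresholds doubled, they came to 6 in macrophages, 2 in T cells and 1 in DCIR2 cDC2s, and 12 were higher in T cells. With cells thinned to 3000 UMIs, 4 members were higher in mature DCs, and lower members came to 15 in cDC1s, 2 in T cells, 2 in NK cells, 1 in Il1r2 DCs and 3 in DCIR2 against CLEC10A cDC2s. There 1 was higher, as was 1 in Il1r2 DCs against CLEC10A cDC2s. Without the filter on low counts, lower members came to 11 in NK cells and 1 in DCIR2 cDC2s, and 1 was higher in Il1r2 DCs against each of the DCIR2 and CLEC10A cDC2s, as with DESeq2. Thinning leaves fewer UMIs, and the cause of the other shifts was not tested.

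The median log2 fold change of the members kept its sign in all alternatives, each sample alone included, in every comparison but 2, T cells (-0.12 to 0.29) and Il1r2 DCs against CLEC10A cDC2s (-0.19 to 0.02). In macrophages it ran from 0.87 to 1.2 and in cDC1s from -1.19 to -1.0. With 1 sample left no residual degrees of freedom remain, so single samples gave values without a test. At 1000 UMIs per cell the mean share of cells with an IFIT or OAS UMI was 28.7% in macrophages and 3.06% in cDC1s. Depth limits pDC, NK and T cells most: 3 UMIs are 16.0 CPM in replicate 1 of pDCs and 0.226 CPM in that of cDC1s.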

Other observations

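The 518 and 474 cells that passed no gate entered no comparison. They carried the members at a summed 2020.1 and 1949.9 CPM, and 25.8% and 30.1% of the 496 and 452 of them with at least 3000 UMIs had, at that depth, a UMI of an IFIT or OAS member. The cell with the most such UMIs of all was among them, with 37 in replicate 1. The 10% of these cells with the most IFIT and OAS UMIs held 75.2% of them in replicate 1 and 66.6% in replicate 2.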
